A study of Mus musculus with 4 samples.

Results

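Interferons are cytokines that cells release against viruses and intracellular microbes, and the genes they switch on are known as interferon-stimulated genes. Type I interferons signal through the JAK kinases to a complex that includes IRF9 and binds the interferon-stimulated response element (ISRE). Interferon-γ, a product of activated T cells, acts mainly through another element, the gamma-activated site (GAS). The immunity-related GTPases (IRG) and guanylate-binding proteins (GBP) are known chiefly as interferon-γ targets that attack the vacuoles in which parasites and bacteria live.

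A list of 42 such genes, given by name, was described here out of 49671 genes in the deposited tables. Of these, 10 encode GBP or IRG GTPases and 32 are genes of the type I response, and all 42 were found in both tables. Many genes of both groups respond to either kind of interferon, so the split is by protein family and not by stimulus. Ifi47, an IRG gene, was counted with the GTPases, and the dynamin-like GTPase genes Mx1 and Mx2 were counted with the type I response.

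RNA came from CD3+ T cells enriched from the spleens of female F1 mus x cast mice, in 4 samples labelled as biological replicates. Their mothers were C57BL/6 mice heterozygous for an Xist deletion and their fathers Mus musculus castaneus (Castaneus), so that the Castaneus allele was always the paternal one, and the effects of strain and parent of origin cannot be told apart. All 4 cultures had plate-bound anti-CD3 (1 µg/ml) and soluble anti-CD28 (10 µg/ml), antibodies that replace antigen and costimulation, for 48 hours. All 4 also had IMD-0354 at 2.5 µM, which blocks the kinase IKKβ and so holds NF-κB in the cytoplasm. The 4 samples form 1 group with no culture without the inhibitor and no unstimulated cells, so neither the inhibitor nor stimulation can be assessed, and the sources used here do not state the ages of the mice.

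Allelic reads numbered 30539711 to 34992012 per replicate. The 8 T cell marker genes summed to 206 to 230 RPKM (reads scaled by transcript length and library size) per replicate. The 5 B cell markers summed to 10.6 RPKM in replicate 1, against 4.50 to 6.49 RPKM in replicates 2 to 4, and all 5 were highest in replicate 1. The 6 myeloid markers summed to 99.4 RPKM in replicate 2 and 37.1 to 61.3 RPKM in the others. The 4 markers of plasmacytoid dendritic cells, which make type I interferon, summed to 8.13 to 9.66 RPKM, from Cox6a2 with a mean of 5.13 RPKM and Pacsin1 with 3.73 RPKM, while Siglech and Klk1 were listed at 0 RPKM in 3 replicates and at 0.0342 and 0.00895 RPKM in replicate 4. In bulk RNA, fewer cells of a type and less RNA per cell cannot be told apart.

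The promoters of many of these genes hold the letters of interferon response elements. RefSeq promoters of 300 bases (250 before and 50 after the annotated start, build GRCm38.p6) were matched to 29 of the 42 genes by symbol. Dhx58, Zbp1, Oas2, Usp18, Parp9, Parp14, Mx1, Mx2, Rtp4, Ifi27l2a, Gbp4, Gbp6 and Iigp1 had no entry. The ISRE core was searched on both strands as GAAA, any 2 bases and GAAA again and GAS as TTCNNNGAA, which reads the same on both. An ISRE core was found for 6 of 7 GTPase genes and 11 of 22 type I response genes, against 3.99% of 27025 genes with a promoter. GAS was found for 3 of 7 GTPase genes and 6 of 22 type I response genes, against 9.55% of all genes. A match of letters describes the sequence and is not evidence of binding.

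The following 6 promoters are shown as examples of both groups that place the elements differently, Igtp and Bst2 being those of the highest gene of each group. Each runs from 5′ to 3′ on the strand of its gene, in the C57BL/6 reference, and capitals mark ISRE core and GAS matches.

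Igtp, chr11:58199306-58199605, plus strand: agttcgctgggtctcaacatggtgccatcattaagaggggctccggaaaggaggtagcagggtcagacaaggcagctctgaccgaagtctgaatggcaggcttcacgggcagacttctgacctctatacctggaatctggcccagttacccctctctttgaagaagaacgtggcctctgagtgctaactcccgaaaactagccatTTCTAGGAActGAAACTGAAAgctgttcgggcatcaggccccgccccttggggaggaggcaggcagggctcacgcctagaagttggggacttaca

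Irgm2, chr11:58214727-58215026, plus strand: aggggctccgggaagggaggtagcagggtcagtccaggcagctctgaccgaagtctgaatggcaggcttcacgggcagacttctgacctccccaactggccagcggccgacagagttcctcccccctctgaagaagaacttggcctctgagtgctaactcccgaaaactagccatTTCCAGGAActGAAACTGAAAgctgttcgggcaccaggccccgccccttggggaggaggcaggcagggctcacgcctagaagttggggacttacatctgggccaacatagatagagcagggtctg

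Gbp2, chr3:142620413-142620712, plus strand: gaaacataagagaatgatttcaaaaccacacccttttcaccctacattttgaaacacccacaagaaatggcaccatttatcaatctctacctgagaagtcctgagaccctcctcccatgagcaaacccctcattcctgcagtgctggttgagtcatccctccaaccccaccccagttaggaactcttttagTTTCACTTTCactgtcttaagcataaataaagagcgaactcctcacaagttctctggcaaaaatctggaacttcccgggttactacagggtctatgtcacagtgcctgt

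Bst2, chr8:71537423-71537722, minus strand: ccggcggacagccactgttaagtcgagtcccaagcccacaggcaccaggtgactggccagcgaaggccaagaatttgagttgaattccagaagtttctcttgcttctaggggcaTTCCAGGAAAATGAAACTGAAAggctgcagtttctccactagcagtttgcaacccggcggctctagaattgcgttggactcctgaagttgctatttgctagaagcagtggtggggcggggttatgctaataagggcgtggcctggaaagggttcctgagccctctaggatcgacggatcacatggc

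Isg15, chr4:156200769-156201068, minus strand: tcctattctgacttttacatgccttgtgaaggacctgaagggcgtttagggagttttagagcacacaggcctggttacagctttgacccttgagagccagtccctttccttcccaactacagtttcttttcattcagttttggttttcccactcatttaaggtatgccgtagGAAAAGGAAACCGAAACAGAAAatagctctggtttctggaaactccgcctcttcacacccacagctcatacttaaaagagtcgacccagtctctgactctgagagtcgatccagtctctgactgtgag

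Ifit1, chr19:34640639-34640938, plus strand: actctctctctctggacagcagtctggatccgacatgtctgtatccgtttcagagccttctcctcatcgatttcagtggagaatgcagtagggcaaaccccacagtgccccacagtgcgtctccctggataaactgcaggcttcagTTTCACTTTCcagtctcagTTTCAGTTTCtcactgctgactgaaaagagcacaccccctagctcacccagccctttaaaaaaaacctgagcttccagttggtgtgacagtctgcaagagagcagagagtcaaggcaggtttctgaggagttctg

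In the Igtp and Irgm2 promoters, a GAS (first base 45 and 75 bases before the start) was followed by an ISRE core whose first base lay 11 bases further on in both. These promoters resemble each other, with 184 of 270 bases identical (68.1%) when aligned without gaps. Their shared spacing is therefore not 2 separate observations, and both are among the 3 GTPase genes with a GAS. Gbp2 held 1 ISRE core and no GAS. Bst2 held 2 overlapping ISRE cores and a GAS that overlaps them, printed as 1 run of capitals. Ifit1 held 2 ISRE cores and Isg15 held 3 that overlap one another, both with no GAS. Ifi47 held neither in its window.

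**Figure D1:**
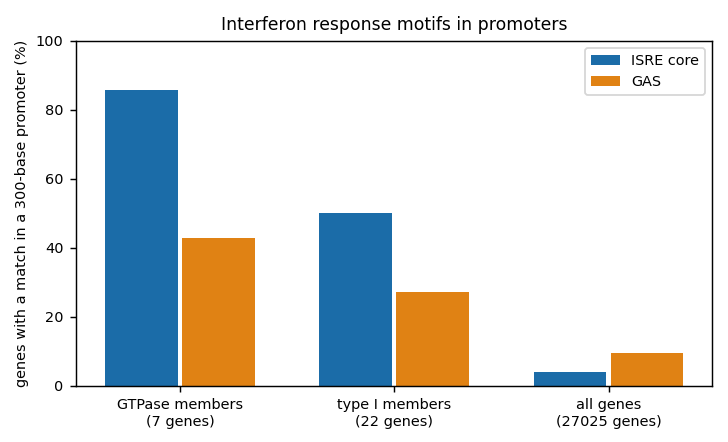
Share of genes (%) with at least 1 match to the ISRE core or GAS in a 300-base RefSeq promoter, for 7 GTPase members, 22 type I response members and all 27025 genes. The ISRE core was found for 85.7% of the GTPase genes, 11 of the 22 type I response genes and 3.99% of all genes.

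The 10 listed IRG and GBP genes had a higher median level than the 32 type I response genes. The median of the GTPase genes was 4.77 RPKM (range 0.443 to 45.8, n = 10 genes) and that of the type I response genes 1.41 RPKM (range 0.0295 to 26.2, n = 32 genes). At least 1 RPKM was reached by 9 of the 10 GTPase genes and 21 of the 32 type I response genes, against 48.7% of the 23510 genes with any RPKM above 0. A level of 10 RPKM was reached by 3 GTPase genes and 5 type I response genes, against 18.1% of these genes. Another 8 GBP and IRG genes, outside the list of members, had a lower median of 1.87 RPKM, and 5 of them reached 1 RPKM. That median still lay above the 1.41 RPKM of the type I response genes. These 8 genes are not counted among the GTPase genes here, so the size of the gap describes the listed genes and not the whole families. On the log2(RPKM + 0.1) scale the median of the GTPases minus that of the type I response genes was 2.23, 1.37, 1.29 and 1.47 in replicates 1 to 4. It was positive in 4 of 4 replicates, and it is a description of 2 chosen lists, with no test. The size of this gap depended on where Mx1 and Mx2 were counted, since with them among the GTPases it was 0.90 instead of 1.64 on the mean levels. The RPKM values take length into account, so that levels of different genes can be set side by side.

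**Figure D2:**
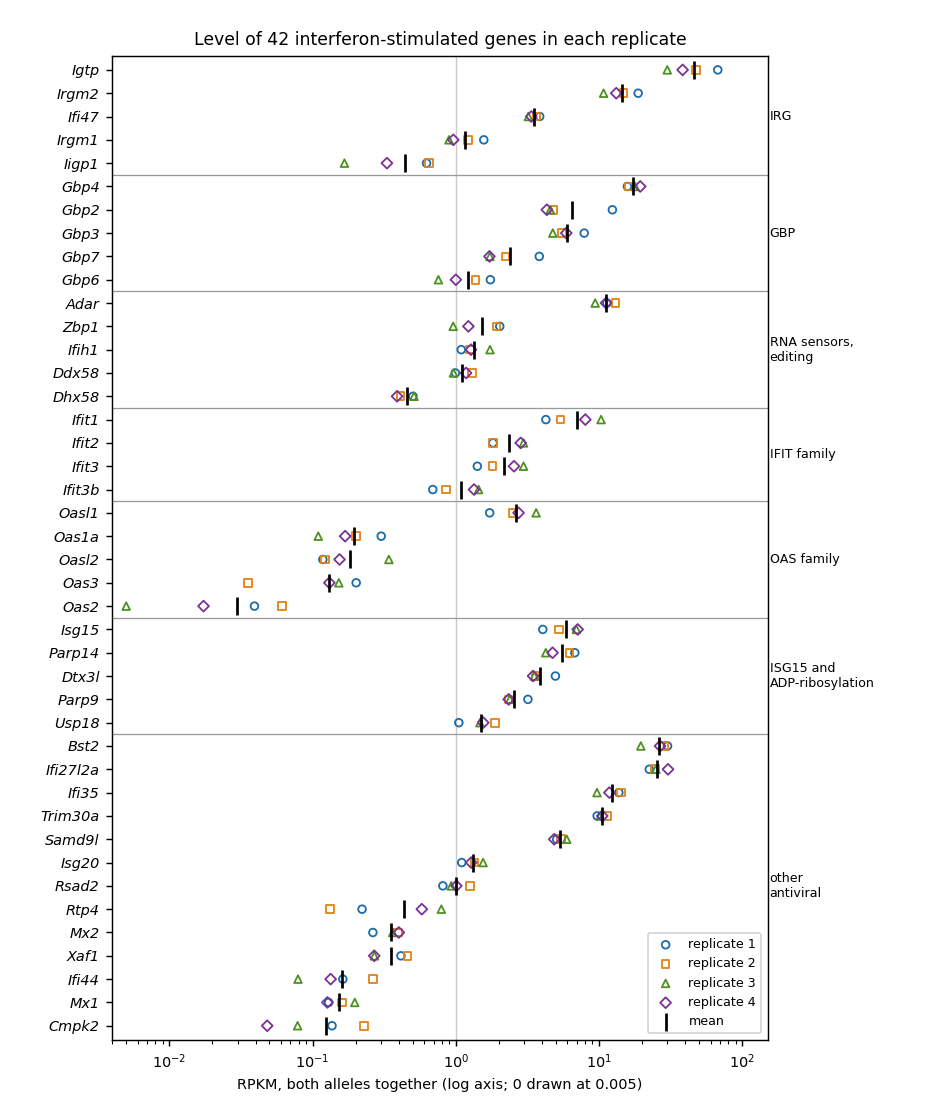
RPKM of both alleles together (log axis) for each of the 42 genes, with 1 symbol per replicate and a bar at the mean, grouped by protein family or role. Igtp has the highest mean at 45.8 RPKM and Oas2 the lowest at 0.0295 RPKM, and 4 of the 5 OAS family genes lie below 1 RPKM.

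Among the IRG genes, Igtp and Irgm2 were highest. Igtp, also known as Irgm3, which keeps the effector IRG proteins off the cell's own membranes, had 67.4, 47.4, 29.9 and 38.3 RPKM in replicates 1 to 4, a mean of 45.8 ± 16.1 RPKM (SD, n = 4). Irgm2, its neighbour on chromosome 11 and also a regulatory member, averaged 14.4 ± 3.36 RPKM. Ifi47 had 3.85, 3.65, 3.21 and 3.37 RPKM, with the smallest relative spread of the 10 GTPase genes (a coefficient of variation of 8.12%). Irgm1, the regulatory member best known from resistance to mycobacteria, had 1.57, 1.22, 0.897 and 0.961 RPKM. The lowest of the listed IRG genes was Iigp1, an effector that coats the vacuole of Toxoplasma, with 0.625, 0.652, 0.167 and 0.331 RPKM. Replicate 3 was the lowest of the 4 for all 5 IRG genes. Igtp and Irgm2 share 162 exonic bases on the same strand in GENCODE M21, and the reads of that stretch were not separated here.

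Among the GBP genes, Gbp4 was highest, with 15.8, 16.1, 17.9 and 19.4 RPKM in replicates 1 to 4. Gbp2 had 12.4 RPKM in replicate 1, against 4.82, 4.57 and 4.32 RPKM in replicates 2 to 4, and its mean of 6.52 ± 3.92 RPKM (SD, n = 4) is carried by that 1 sample. Gbp3 had 7.88, 5.51, 4.75 and 5.91 RPKM and Gbp7 had 3.83, 2.23, 1.73 and 1.72 RPKM. Both were highest in replicate 1, as was Gbp6, the lowest of the listed GBP genes, with 1.74, 1.38, 0.756 and 1.00 RPKM. Gbp4 went the other way, with replicate 1 the lowest. The GBP genes are close relatives, and the sources used here do not say how reads that match several of them were treated. Gbp6 also shares 1726 exonic bases (29.0% of its exons) with Gm43302 on the same strand, and the reads of that stretch were not separated here.

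The RNA sensors were read at low levels apart from Adar. Adar, which edits adenosines in double-stranded RNA and so hides the cell's own RNA from these sensors, had 11.4, 13.0, 9.39 and 11.2 RPKM. Zbp1, a sensor of left-handed nucleic acids that can start necroptosis, averaged 1.53 ± 0.522 RPKM, Ifih1, which encodes MDA5, 1.34 ± 0.276 RPKM and Ddx58, which encodes RIG-I, 1.11 ± 0.160 RPKM (SD, n = 4). Dhx58, which encodes the related LGP2, had 0.502, 0.410, 0.511 and 0.389 RPKM. In every replicate Adar lay above the highest value of the other 4 genes, 2.03 RPKM for Zbp1 in replicate 1. Its exons overlap those of Chrnb2 on the opposite strand by 1365 bases, and whether reads were counted by strand is not stated in those sources.

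The 4 IFIT genes, whose proteins bind foreign RNA ends and block their translation, shared a pattern over the animals by RPKM that allelic reads kept only in part. Ifit1 had 4.25, 5.37, 10.3 and 8.02 RPKM in replicates 1 to 4, and Ifit3b had 0.691, 0.854, 1.44 and 1.34 RPKM. Ifit2 averaged 2.36 ± 0.628 RPKM and Ifit3 2.18 ± 0.704 RPKM (SD, n = 4). By RPKM all 4 were highest in replicate 3 and lowest in replicate 1, although Ifit2 differed little between replicates 1 and 2 (1.82 RPKM in both). By allelic reads scaled to library total, Ifit3 and Ifit3b were highest in replicate 4, and Ifit2 and Ifit3 were lowest in replicate 2. The genes stand in 1 cluster on chromosome 19, and Ifit3 and Ifit3b are close copies of each other, so the split of reads between them is uncertain.

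The OAS enzymes make short oligoadenylates that activate RNase L, and their genes were the lowest of the families described. Oas2 was at 0.0393, 0.0612, 0 and 0.0173 RPKM in replicates 1 to 4 and had no allelic read in any of them. Oas1a averaged 0.195 ± 0.0803 RPKM and Oas3 0.130 ± 0.0696 RPKM (SD, n = 4). Oasl2 had 0.341 RPKM in replicate 3, against 0.118, 0.122 and 0.154 RPKM in replicates 1, 2 and 4. Oasl1, an OAS-like gene whose product restrains the translation of IRF7 in mice, stood apart from them with 1.72, 2.48, 3.64 and 2.74 RPKM. Its lowest value exceeded the highest value of each of the other 4 genes.

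The genes of the ISG15 system and of ADP-ribosylation lay between 1.05 and 7.09 RPKM in every replicate. Isg15, a ubiquitin-like modifier attached to proteins in infected cells, had 4.05, 5.27, 6.95 and 7.09 RPKM. Usp18, which removes ISG15 and damps the type I receptor, had 1.05, 1.87, 1.47 and 1.56 RPKM. Parp14, a mono-ADP-ribosyltransferase gene, averaged 5.50 ± 1.2 RPKM (SD, n = 4). Dtx3l, a ubiquitin ligase gene, had 4.96, 3.60, 3.53 and 3.46 RPKM and Parp9, whose protein is its partner, 3.19, 2.33, 2.38 and 2.34 RPKM. In both genes replicate 1 stood above the other 3 replicates, which lay close together. The pair lie head to head on chromosome 16, and 458 exonic bases of opposite strands overlap.

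The remaining 13 antiviral effectors had means of 0.123 to 26.2 RPKM. Bst2, also called tetherin, which holds budding virus at the cell surface, had 30.1, 28.5, 19.6 and 26.6 RPKM. Ifi27l2a had 22.4, 24.6, 24.9 and 30.3 RPKM, Ifi35 averaged 12.4 ± 2.10 RPKM and Trim30a had 9.70, 11.3, 10.2 and 10.5 RPKM. Samd9l, which restrains translation in virus-infected cells, had 5.06, 5.44, 5.94 and 4.86 RPKM. Isg20, an exonuclease gene, averaged 1.32 ± 0.186 RPKM and Rsad2, which encodes viperin, the maker of a chain-terminating nucleotide, 1.00 ± 0.191 RPKM (SD, n = 4). The other 6 genes had means under 1 RPKM, from 0.123 RPKM for Cmpk2 to 0.431 RPKM for Rtp4. Cmpk2, a nucleotide kinase gene next to Rsad2, had 0.137, 0.229, 0.0786 and 0.0482 RPKM, and Mx1, whose dynamin-like product blocks influenza virus, had 0.129, 0.161, 0.197 and 0.127 RPKM. Rtp4 differed most between animals among these 13 genes, with 0.792 RPKM in replicate 3 and 0.133 RPKM in replicate 2.

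Most of the listed GTPase genes were highest in replicate 1, and the type I response genes were spread over the replicates. Of the 10 GTPase genes, 8 were highest in replicate 1 and 7 lowest in replicate 3, against 19.7% highest in replicate 1 and 30.2% lowest in replicate 3 among the 11453 genes averaging 1 RPKM or more. Of the 32 type I response genes, 7 were highest in replicate 1 and 12 in replicate 3, against 17.3% of all these genes highest in replicate 3. Of the type I response genes 14 were lowest in replicate 1, against 38.4% of all these genes. Scaled from allelic reads by library total instead (a choice made after seeing the data), 7 of 8 GTPase genes were highest in replicate 1 and 4 of 8 lowest in replicate 3. By that measure, of 28 type I response genes 8 were highest in replicate 1, 9 highest in replicate 3 and 7 lowest in replicate 1. The shares of all genes were not computed from allelic reads, so these counts have no background beside them. By RPKM, 4 of the 8 GBP and IRG genes outside the list were highest in replicate 1, beside the 19.7% given above. Among these 8 genes, Gbp2b was at 0.0376 RPKM or less in each replicate. These counts describe 4 animals and have no test. Replicate 1 also had the highest B cell marker sum given above, and the part of that difference in the result was not tested.

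**Figure D3:**
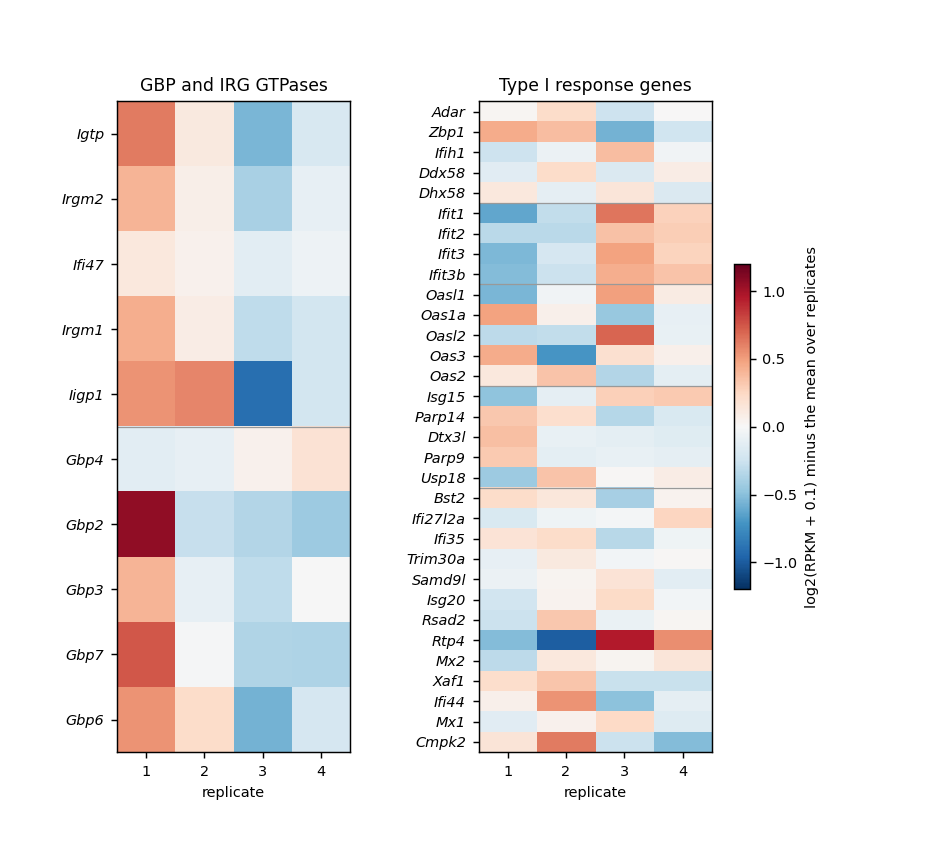
Level of each gene in each replicate as log2(RPKM + 0.1) minus the gene's own mean over the 4 replicates, with GBP and IRG GTPases in the left panel and type I response genes in the right panel. Replicate 1 is the highest for 8 of the 10 GTPases. Of the 32 type I response genes, 7 are highest and 14 lowest there. Among the 11453 genes averaging 1 RPKM or more, 19.7% are highest and 38.4% lowest there.

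Other genes of interferon signalling gave the setting of these levels. Of 9 interferon ligand genes, 6 were listed at 0 RPKM in all replicates, Ifnb1 and Ifna2 were at 0.0870 RPKM or less in each, and Ifng had 2.23, 0.782, 2.04 and 1.83 RPKM. All 5 receptor genes reached 1 RPKM, with 18.6 ± 1.81 RPKM for Ifnar1 and 20.7 ± 1.49 RPKM for Ifngr1. Among the JAK and IRF genes, Jak1 averaged 61.3 ± 3.23 RPKM and Irf9 7.92 ± 0.909 RPKM. Irf7, the factor that amplifies type I interferon, was lower, with 0.371 ± 0.0277 RPKM (SD, n = 4). Irf1, which is itself induced by interferon-γ, had 39, 31.6, 24.3 and 30.6 RPKM. Socs1, the feedback inhibitor of the JAK kinases, had 26.2, 18.5, 15 and 14.3 RPKM. Of the 5 inhibitor genes 3 were highest in replicate 1, as were 2 of the 5 receptor genes and 2 of the 8 JAK, STAT and IRF genes. Of the 11453 genes averaging 1 RPKM or more, 19.7% were highest there, and counts on lists this short describe those lists only.

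Allele counts showed which parental copy the RNA came from. Shares are given for the 36 genes, all autosomal, whose replicates averaged 20 or more allelic reads. Mx1 was just inside this limit with a mean of 41 reads and Oas1a just outside it with 16.25. Igtp, Oas2, Oas1a, Oas3, Cmpk2 and Iigp1 were outside. Reads came in clumps. Among autosomal genes with 20 to 39 allelic reads in a replicate, 36.4%, 84.2%, 45.2% and 13.5% were read from 1 allele alone in replicates 1 to 4, so that a share of 0% or 100% in genes with few reads, above all in replicate 2, has low precision. The Castaneus share of all autosomal reads was 49.6% ± 0.0870 (SD, n = 4).

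Of the 36 genes, 9 were higher from the Castaneus allele and 1 from the C57BL/6 allele (edgeR's quasi-likelihood test, false discovery rate of 5% over all 13627 autosomal genes tested). Among all genes tested 10.4% were called higher from Castaneus and 12.5% higher from C57BL/6, 22.9% in all. The calls fell on 4 of 8 GTPase genes, all higher from Castaneus, and on 6 of 28 type I response genes, of which 5 were higher from Castaneus. The median log2 ratio of Castaneus over C57BL/6 was 0.14 over the 36 genes and -0.05 over all genes tested. The sources used here do not say how reads were assigned to an allele, and the part of that step in these shares was not tested.

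**Figure D4:**
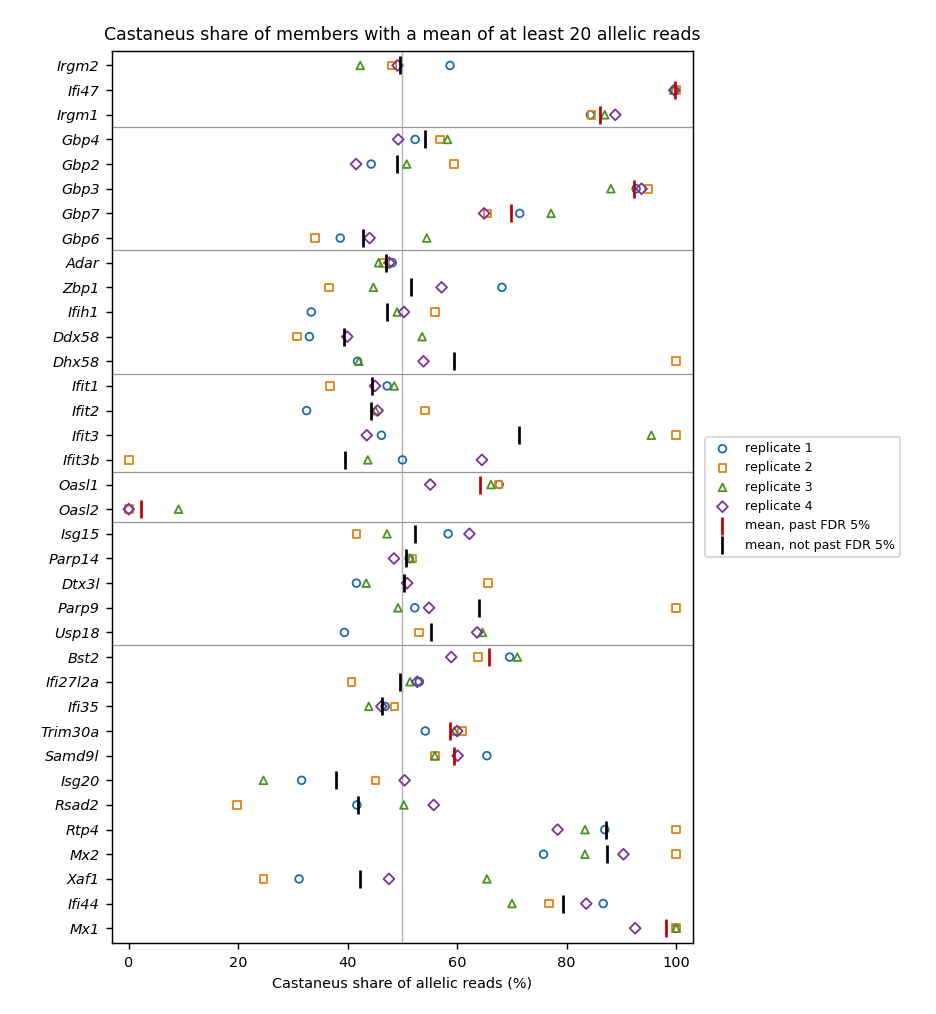
Castaneus share of allelic reads (%) in each of the 4 replicates for the 36 genes that averaged 20 or more allelic reads, with a bar at the mean that is red where the gene passed the false discovery rate of 5%. Ifi47, Gbp3, Irgm1 and Mx1 lie near the Castaneus end in all 4 replicates and Oasl2 near the C57BL/6 end.

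In the IRG family, the copies differed from one another. Ifi47 (ENSMUSG00000078920, 11:49076587-49096974, mm10) was read almost wholly from Castaneus, with 1077, 862, 880 and 850 Castaneus reads and 4, 0, 4 and 3 C57BL/6 reads in replicates 1 to 4 (log2 ratio 8.35, standard error 0.34, edgeR adjusted p = 7.16e-08). In replicate 2, the 0 C57BL/6 reads would leave room for 0.348% of C57BL/6 reads if each read were independent. Since reads came in clumps, this limit is likely too low. Irgm1 (ENSMUSG00000046879, 11:48861968-48871683) had a Castaneus share of 84.3%, 84.5%, 86.9% and 88.9%, with 2079 Castaneus and 343 C57BL/6 reads in all (log2 ratio 2.67, standard error 0.20, edgeR adjusted p = 7.50e-06). Irgm2, on the same chromosome, was at 49.5% ± 6.80 from Castaneus (SD, n = 4) and did not pass (adjusted p = 0.996). Iigp1 had 0 Castaneus and 40 C57BL/6 reads in all, too few for a share.

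Igtp had no allelic read in any replicate in spite of the highest level of the 42 genes. Among the 4121 autosomal genes averaging 10 RPKM or more, 78 (1.89%) had no allelic read. The number of allelic reads per kilobase of exon and per RPKM had a median of 53.4 over 10251 autosomal genes, with 10.7 and 96.0 as the 5th and 95th percentiles. It was 5.89 for Irgm2 and 9.52 for Parp9, so that their shares rest on fewer allelic reads than their levels would give elsewhere. It was 106 for Ifi47, 105 for Isg15 and 98.3 for Gbp3. Why these genes lie outside that range was not tested.

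In the GBP cluster on chromosome 3, Gbp7 and Gbp3 leaned to Castaneus and Gbp2 did not pass. Gbp3 (ENSMUSG00000028268, 3:142560026-142573209) had a Castaneus share of 92.7%, 94.9%, 88.1% and 93.7%, from 7135 Castaneus and 588 C57BL/6 reads in all (log2 ratio 3.66, standard error 0.20, edgeR adjusted p = 6.08e-07). Gbp7 (ENSMUSG00000040253, 3:142530342-142550149) had 71.4%, 65.5%, 77.1% and 64.9% (log2 ratio 1.24, standard error 0.19, edgeR adjusted p = 0.000791). Gbp2, at 3:142620602-142638008, was at 49.0% ± 7.94 (SD, n = 4, adjusted p = 0.926). On chromosome 5, Gbp4 was at 54.2% ± 4.16 and Gbp6 at 42.8% ± 8.80, and neither passed (adjusted p = 0.111 and 0.370). Of the 7 other GBP and IRG genes that could be tested, Gbp5 at 72.1% ± 6.48 and Gbp9 at 62.6% ± 5.13 were higher from Castaneus and Gbp8 at 27.5% ± 11.2 higher from C57BL/6 (SD, n = 4). Among all genes tested, these shares called were 10.4% and 12.5%.

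The neighbouring OAS-like genes Oasl1 and Oasl2 were called in opposite directions. Oasl1 (ENSMUSG00000041827, 5:114923240-114937915) had a Castaneus share of 67.7%, 67.5%, 66.2% and 55.1% (log2 ratio 0.87, standard error 0.22, edgeR adjusted p = 0.0173). Oasl2 (ENSMUSG00000029561, 5:114896936-114912234) had 0, 0, 18 and 0 Castaneus reads and 62, 44, 180 and 94 C57BL/6 reads (edgeR adjusted p = 0.00542). If each read were independent, the 0 Castaneus reads of replicates 1, 2 and 4 would leave room for Castaneus shares of 4.84%, 6.82% and 3.19%. Since reads came in clumps, these limits are likely too low.

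The other calls were on effectors with moderate or large imbalance. Bst2 (8:71534255-71537456) had a Castaneus share of 69.6%, 63.8%, 71.0% and 58.9% (log2 ratio 0.98, standard error 0.17, edgeR adjusted p = 0.00189). Trim30a (7:104409025-104465193) had 54.2%, 60.8%, 59.5% and 59.98% (log2 ratio 0.53, standard error 0.10, adjusted p = 0.00357) and Samd9l (6:3372257-3399572) had 65.4%, 55.9%, 55.9% and 60.1% (log2 ratio 0.57, standard error 0.17, adjusted p = 0.0324). Each of the 3 was above 50% in 4 of 4 replicates. Mx1 (16:97447035-97462907), of which C57BL/6 is known to carry a defective allele, had 44, 26, 54 and 37 Castaneus reads and 0, 0, 0 and 3 C57BL/6 reads (edgeR adjusted p = 0.0255). The ratio of its 161 Castaneus to 3 C57BL/6 reads was 53.7 (95% exact Clopper-Pearson interval 18 to 263, for counting error only). The interval pools the 4 replicates and takes reads as independent, so with clumped reads it is likely too narrow. The call of Oasl1 was lost without replicate 1 or 3 (edgeR adjusted p = 0.0794 and 0.0819). Those of Samd9l and Mx1 were lost without replicate 1, 3 or 4, with adjusted p of 0.143, 0.0593 and 0.132 for Samd9l and 0.111, 0.101 and 0.0885 for Mx1.

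The other 26 genes did not pass, and 18 of them had a mean Castaneus share between 40% and 60%. The best measured of these were Adar at 47.0% ± 1.11, from a mean of 4962.5 reads per replicate, Parp14 at 50.7% ± 1.55 and Ifi35 at 46.3% ± 1.94 (SD, n = 4). Ifit1 was at 44.4% ± 5.26 and Isg15 at 52.3% ± 9.60, with replicates on both sides of 50% for Isg15. Adar, Ifi35 and Ifit1 were below 50% in 4 of 4 replicates but did not pass (edgeR adjusted p = 0.143, 0.266 and 0.155). Ifi27l2a had 53.1%, 40.7%, 51.4% and 52.7%, and Dtx3l averaged 50.4% ± 10.9. Rtp4 at 87.2% ± 9.26, Mx2 at 87.4% ± 10.3 and Ifi44 at 79.3% ± 7.42 had more Castaneus than C57BL/6 reads in 4 of 4 replicates but missed the threshold (edgeR adjusted p = 0.0513, 0.0780 and 0.0667). In 6 of the 26 genes replicate 2 showed 1 allele alone. One of them was Parp9, with 52.3%, 100%, 49.2% and 54.8%, where replicate 2 had 38 Castaneus reads and 0 C57BL/6 reads.

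Among the signalling genes, the receptors that passed were all higher from C57BL/6. These were Ifnar1 at 42.2% ± 1.24, Ifngr1 at 44.1% ± 1.51 and Ifnlr1 at 32.3% ± 3.84 from Castaneus, 3 of 5 receptor genes (SD, n = 4). Among all 13627 genes tested 12.5% were called higher from C57BL/6 and 10.4% higher from Castaneus. Counts on lists this short describe those lists only. Of the JAK kinase genes, Tyk2 at 53.2% ± 1.91 was higher from Castaneus and Jak1 at 46.1% ± 1.28 was higher from C57BL/6 (SD, n = 4). Of the 5 inhibitor genes, Ptpn6 came nearest to the threshold (unadjusted p = 0.0308 and adjusted p = 0.104 in edgeR, n = 4).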

How the data were processed

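Total RNA of 4 samples of 1 group was sequenced from a stranded, ribosomal-RNA-depleted library kit, per the labels' protocols. Reads were aligned with STAR 2.7.1a to mm10 and counted with featureCounts, per the submitters' processing notes. The authors deposited a table of RPKM values over both alleles and a table of whole-number allele counts for each gene and replicate. The sources used here do not state the strand setting, the allele assignment or the treatment of duplicate reads.

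The 42 genes and the pathway and marker lists were chosen with earlier results of these data known. RPKM values were described by mean, SD and median with no test, and differences used log2(RPKM + 0.1). Allele counts of autosomal genes with a mean of at least 20 reads per replicate were tested two-sided with edgeR 4.0.16 (quasi-likelihood, R 4.3.3), Castaneus over C57BL/6 against a ratio of 1, scaled by each column's autosomal total. The replicate was a block, since both alleles come from 1 animal. P-values were adjusted over all 13627 genes by Benjamini-Hochberg at 5%. The step was also run on simulated counts drawn independently, without clumped reads, so that run does not cover the clumping seen in these data. Values per replicate are given for the highest and lowest listed gene of each family, the genes called and those with a replicate set apart. Alternatives were TMM scaling, DESeq2 1.42.0, other filters, no replicate block, other list boundaries and leaving out each replicate. Intervals and limits from counts of 0 (3 counts) cover counting error only and take reads as independent. Where reads came in clumps they are too narrow. With the replicate as a block, the p-values measure how the allelic ratio varied between these 4 samples, and not how levels varied. One gene of the signalling list is not reported here.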

Additional observations from a re-analysis of the deposited data

Results flagged for a closer look

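In 9 of 78 sets of 4 replicate values looked at, 1 replicate lay far from the other 3 (by Dixon's ratio at the 95% level), where chance gives about 1 in 20 sets. That rate does not apply to the shares of Mx1 and Oasl2, 2 of the 9, since their other 3 values are tied at 100% or 0% and any departure gives the largest ratio. For RPKM, Gbp2 had 12.4 in replicate 1 against 4.32 to 4.82 in the others, Dtx3l had 4.96 in replicate 1 against 3.46 to 3.60, Parp9 had 3.19 in replicate 1 against 2.33 to 2.38, and Oasl2 had 0.341 in replicate 3 against 0.118 to 0.154. For the Castaneus share, Oasl1 had 55.1% in replicate 4 against 66.2% to 67.7% in the others, and Ifi27l2a had 40.7% in replicate 2 against 51.4% to 53.1%. Parp9 had a Castaneus share of 100% in replicate 2 against 49.2% to 54.8%, from 38 allelic reads. Mx1 had 92.5% in replicate 4 against 100% in the others, a difference made by 3 reads. Oasl2 had 9.09% in replicate 3 against 0% in the others.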

How the results depend on the processing

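Of the 10 allelic calls, those of Ifi47, Gbp3, Irgm1, Gbp7, Bst2 and Trim30a passed under all 11 alternatives run, and that of Oasl2 under all 10 that could test it. Oasl1 missed without the replicate block (adjusted p = 0.0649), Samd9l likewise (0.0608), and both missed without single replicates, as did Mx1. Of the genes not called, Rtp4 passed under TMM, DESeq2, each of the 3 other read filters and without replicate 2, Mx2 under DESeq2, without the block and with a minimum of 1 read, and Ifi44 and Gbp4 under DESeq2. Over all autosomal genes the 3118 calls became 4688 with DESeq2, of which 2367 were higher from Castaneus against 1418. Leaving out 1 replicate gave 1954 to 3446 calls, 908 to 1543 of them higher from Castaneus and 1035 to 1903 higher from C57BL/6. Without replicate 1 these were 908 and 1046, and without replicate 4 they were 942 and 1035. Without the replicate block 2450 genes were called. The 9 listed genes higher from Castaneus became 8 without the block, 10 with TMM, 13 with DESeq2 and 6 to 10 without single replicates, with 6 when replicate 1 or replicate 3 was left out. The 1 gene higher from C57BL/6 became 0 among genes of at least 1 RPKM, since Oasl2 was then not tested, and 1 to 2 without single replicates, where Ddx58 was added without replicate 3.

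The level difference of GTPase minus type I response genes, 1.64 on the log2 scale, was 1.15 among genes of at least 1 RPKM, 0.90 with Mx1 and Mx2 as GTPases and 1.43 to 1.75 without single replicates. The GTPase median of 4.77 RPKM was 6.01 among genes of at least 1 RPKM, 2.95 with Mx1 and Mx2 and 6.01 without Ifi47, and the type I median of 1.41 RPKM was 2.65 among genes of at least 1 RPKM. Type I response genes lowest in replicate 1 numbered 14 of 32 by RPKM and 7 of 28 by allelic reads scaled to library total, a choice made after seeing the data. By RPKM, 38.4% of all genes averaging 1 RPKM or more were lowest there, and no such share was computed by allelic reads. The cause of the changes between settings was not tested beyond the genes each alternative leaves out.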
